A study of Homo sapiens with 12 samples.

Results

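Solute carriers are membrane proteins that move small molecules across the plasma membrane and the membranes of organelles, and they are named by family number (SLC), a letter and a member number. The 99 genes described here are those of the 10940 genes in the count table whose symbol has that form and whose family is not one of 10 left out (SLC2, SLC3, SLC7, SLC11, SLC16, SLC25, SLC30, SLC38, SLC39 and SLC40, which carry mainly sugars, amino acids, monocarboxylates, mitochondrial substrates and metals). They were sorted into 11 substrate classes by family, with single genes placed apart from their family where their substrate differs or is unknown (SLC6A4 and SLC22A23, for example), and 96 of them passed the filter on low counts and were tested. The cells were HepG2, an established human liver cancer line, labelled as wild type. Libraries came from cells kept in Plasmax-TE+Fe (Plasmax lacking trace elements, supplied with iron), in Plasmax-TE (Plasmax lacking trace elements), in Plasmax, or in EMEM, with 3 libraries per medium. Every medium held 10% heat-inactivated fetal bovine serum, so serum was a source of solutes and metals in all 4. Cells were seeded in EMEM, switched 24 h later, given fresh medium at 48 h and harvested at 96 h. Plasmax is a culture medium made to resemble the composition of human plasma, while EMEM is a classical minimal medium. The labels do not state whether replicates were grown separately; the tests therefore use library-to-library spread, part or all of which may be technical.

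In the liver, solute carriers take up citrate, amino acids, vitamins, nucleosides and organic ions from blood, and pass phosphate, sulfate and acid or base across the membrane. Carriers of the Golgi apparatus and endoplasmic reticulum supply nucleotide sugars for glycosylation and move glucose 6-phosphate into the endoplasmic reticulum. Many are driven by the sodium gradient, and transcript level is only 1 of the factors that set transport.

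Total counts per library ran from 1562125 to 2384090, so that 1 count was worth 0.419 to 0.64 CPM (counts per 1000000 counts of the library). All 10 hepatocyte markers looked for were in the table, with summed levels of 14088 to 43522 CPM. SERPINA1 was the lowest of them, at 10.3 to 38.2 CPM. Of the markers of other cell types, 2 of 5 fibroblast genes were in the table (2.28 to 26.4 CPM in sum). None of 4 endothelial genes was. Of 5 blood cell genes 2 were there, LYZ at 779 to 2496 CPM and CD68 at 0.993 to 6.49 CPM. The libraries Plasmax-TE+Fe replicate 2 and Plasmax-TE replicate 1 stood apart on the second principal component, and some results are given both with and without them. Unless stated, values are those of all libraries. Levels are CPM of 3′ end reads, which are not divided by gene length. In a culture of 1 line, fewer expressing cells and less RNA per cell cannot be told apart.

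Most of the solute carriers were expressed at low to moderate levels. Their mean level over the 12 libraries ran from 2.69 CPM (SLC5A11) to 558.5 CPM (SLC1A5), with a median of 24.8 CPM, and 19 genes lay under 10 CPM while 11 reached 100 CPM. Plasmax was the medium with the lowest mean for 50 of the 99 genes, against 6 in Plasmax-TE+Fe, 21 in Plasmax-TE and 22 in EMEM. That count was not made over all genes, so it does not show a trait particular to the carriers. In a test of all media together, 25 of 96 genes (26.0%) were called at a Benjamini-Hochberg adjusted p under 0.05 in edgeR's quasi-likelihood test, against 18.0% of all genes tested. Without EMEM replicate 3, 16 carriers and 1278 genes in all were called.

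Set against EMEM, Plasmax lowered more of these genes than it raised. Of the 96 genes, 26 were called (27.1%), beside 21.4% of all genes tested. There were 20 lower genes (20.8%, against 11.5% of all genes) and 6 higher ones (6.25%, against 9.90%). The median log2 fold change of the carriers was -0.22, and that of all genes -0.01. At a log2 change of 1 or more in either direction, 15 of the 96 carriers were called, beside 8.76% of all genes. An unadjusted p under 0.05 was found for 34 of the 96, beside 34.2% of all genes. The lower genes included carriers of citrate and other carboxylates (SLC13A3, SLC13A5), glutamate (SLC1A2), creatine (SLC6A8) and glucose 6-phosphate (SLC37A4). The higher genes included the glutamine carrier SLC1A5, the phosphate carrier SLC20A1 and the heme carrier SLC48A1. Leaving out Plasmax replicate 2 gave 18 calls, the fewest of any single library left out, with 1489 genes called in all against 2233.

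Removing the trace elements from Plasmax raised 11 of the 96 genes and lowered 4. These 15 calls (15.6%) stand beside 11.2% of all genes tested, with 11.5% against 5.61% for higher genes and 4.17% against 5.63% for lower ones. The median log2 fold change of the carriers was 0.19, and that of all genes 0.02. A log2 change of 1 or more in either direction was called for 6 of the 96 carriers, beside 4.40% of all genes. This comparison shares the Plasmax libraries with the one before. Without Plasmax replicate 2 there were 10 calls, with 477 genes called in all against 1176. Without the 2 libraries that stood apart there were 16 calls, 14 of them among these 15, with 1168 genes called in all. In both comparisons 1 of the calls was SLC23A1, which passed the filter only through the Plasmax-TE libraries. It therefore had to lie higher in Plasmax-TE, while its call in Plasmax against EMEM rested on at most 2 counts per Plasmax library.

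Adding iron to Plasmax-TE lowered 2 of the 96 genes, SLC13A5 and SLC13A3 (2.08%, beside 0.258% of all genes tested), and raised none. An unadjusted p under 0.05 was found for 11 of the 96 carriers, beside 9.31% of all genes tested. Compared with Plasmax itself, Plasmax-TE+Fe gave no carrier call in edgeR or in DESeq2, beside 1.20% of all genes in edgeR. Of all genes, 0.507% were higher, 0.698% lower, and 0.679% called with a log2 change of 1 or more in either direction. Here 14 of the 96 carriers had an unadjusted p under 0.05, beside 13.6% of all genes tested. Against EMEM, Plasmax-TE+Fe raised 3 and lowered 9 (12.5%, beside 9.65% of all genes, of which 3.67% were higher and 5.98% lower). A log2 change of 1 or more in either direction was called for 7 of the 96 carriers, beside 3.80% of all genes. Plasmax-TE against EMEM lowered 5 genes and raised none (5.21%, beside 4.81% of all genes, of which 1.62% were higher and 3.19% lower). Of the 96 carriers, 3 were called at that size, beside 2.29% of all genes. Without the 2 libraries that stood apart the calls against EMEM numbered 22 in Plasmax-TE+Fe and 10 in Plasmax-TE. Over all genes 1503 and 656 were then called, against 1009 and 503 with every library. In Plasmax-TE+Fe there were 6 without its replicate 3 and 7 without EMEM replicate 1, with 651 and 628 genes called in all. In Plasmax-TE there were 2 without its replicate 2 and 3 without EMEM replicate 1, with 294 and 293 genes called in all.

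**Figure D1:**
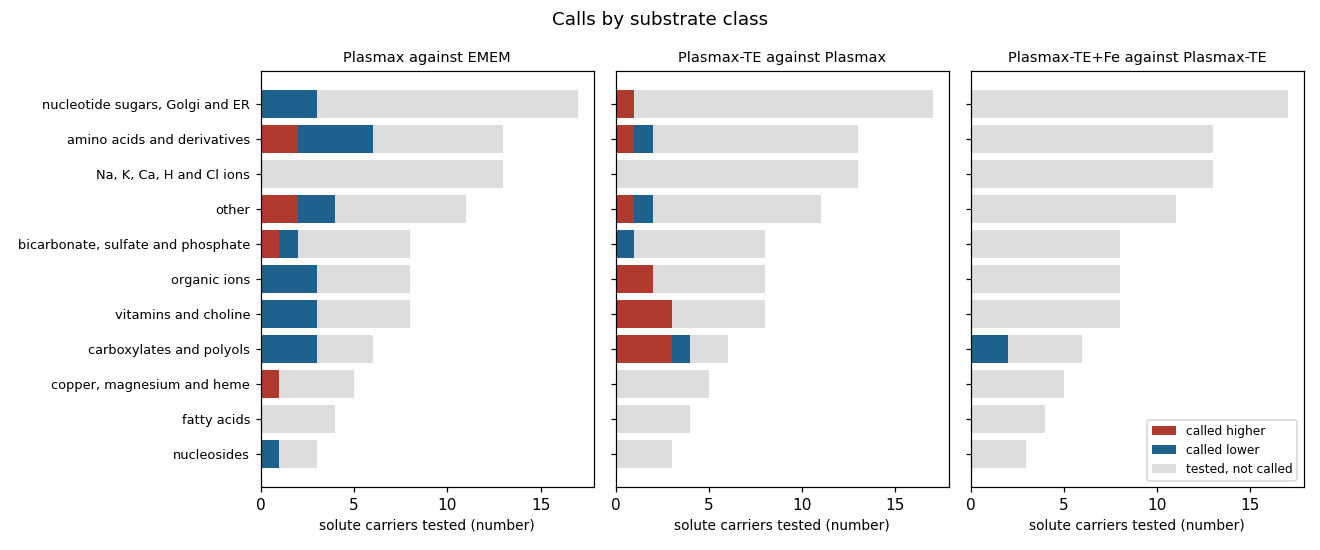
Number of solute carriers tested in each substrate class (bar length), with genes called higher in red, called lower in blue and not called in grey, for 3 comparisons. The 13 carriers of sodium, potassium, calcium, protons and chloride had no call. Both calls in Plasmax-TE+Fe against Plasmax-TE were in the class of carboxylates and polyols. Over all genes tested, 21.4% were called in Plasmax against EMEM, 11.2% in Plasmax-TE against Plasmax and 0.258% in Plasmax-TE+Fe against Plasmax-TE.

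The class of carboxylates and polyols, which also takes in sugar carriers such as SLC5A9, had 6 tested genes. Of these, 3 fell in Plasmax against EMEM, 3 rose and 1 fell in Plasmax-TE against Plasmax, and 2 fell in Plasmax-TE+Fe against Plasmax-TE. SLC45A3 and SLC50A1 were not called in any comparison. The summed level of the class was 166, 176 and 175 CPM in Plasmax-TE+Fe, 277, 292 and 263 CPM in Plasmax-TE, 171, 163 and 169 CPM in Plasmax, and 401, 383 and 340 CPM in EMEM. The Plasmax-TE+Fe and Plasmax libraries overlapped in that sum, and both lay below all Plasmax-TE and all EMEM libraries. Most of the sum was SLC13A3 and SLC13A5, which made up 66.3% of it in Plasmax-TE+Fe, 76.2% in Plasmax-TE, 60.7% in Plasmax and 78.3% in EMEM.

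SLC13A5 is the sodium-driven citrate carrier of the liver cell plasma membrane. It had 67.7, 67.1 and 65.1 CPM in Plasmax-TE+Fe, 134, 139 and 119 CPM in Plasmax-TE, 67.2, 38.7 and 61.9 CPM in Plasmax, and 162, 126 and 116 CPM in EMEM. No library of Plasmax-TE+Fe or Plasmax reached the lowest library of Plasmax-TE or EMEM. Its log2 fold change was -1.31 ± 0.19 (SE) in Plasmax against EMEM (edgeR adjusted p = 5.5e-05), and 1.23 ± 0.19 in Plasmax-TE against Plasmax (edgeR adjusted p = 4.1e-04). In Plasmax-TE+Fe against Plasmax-TE it was -0.98 ± 0.19 (edgeR adjusted p = 0.027).

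SLC13A3, a sodium-driven carrier of succinate and other dicarboxylates, had the lowest p of all the carriers in Plasmax against EMEM. Its level was 42.9, 51.4 and 49.2 CPM in Plasmax-TE+Fe, 71.3, 89.7 and 80.6 CPM in Plasmax-TE, 51.2, 43.9 and 42.2 CPM in Plasmax, and 164, 155 and 155 CPM in EMEM. EMEM was highest, Plasmax-TE intermediate, and the other two media overlapped. On the log2 scale the change was -1.85 ± 0.16 in Plasmax against EMEM (edgeR adjusted p = 1.1e-07) and 0.83 ± 0.16 in Plasmax-TE against Plasmax (edgeR adjusted p = 0.0021). It was -0.77 ± 0.16 in Plasmax-TE+Fe against Plasmax-TE (edgeR adjusted p = 0.037).

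Both calls with added iron depended on single libraries. Neither gene was called without Plasmax-TE+Fe replicate 1 or 3, or without Plasmax-TE replicate 2 or 3, with edgeR adjusted p up to 0.226. In each of those cases 0 genes of the whole table were called. The log2 fold changes there stayed between -1.01 and -0.92 for SLC13A5, and between -0.79 and -0.68 for SLC13A3. SLC13A3 was also not called without Plasmax replicate 2 or any 1 of the EMEM libraries, nor with the replicate number as a block (edgeR adjusted p = 0.076), although replicate numbers did not pair the libraries of these media. Runs of consecutive library numbers did, and with the run as a block both calls were kept (edgeR adjusted p = 0.0046 for SLC13A5 and 0.011 for SLC13A3), while 152 genes in all were called against 27. Both genes were also called without the 2 libraries that stood apart.

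**Figure D2:**
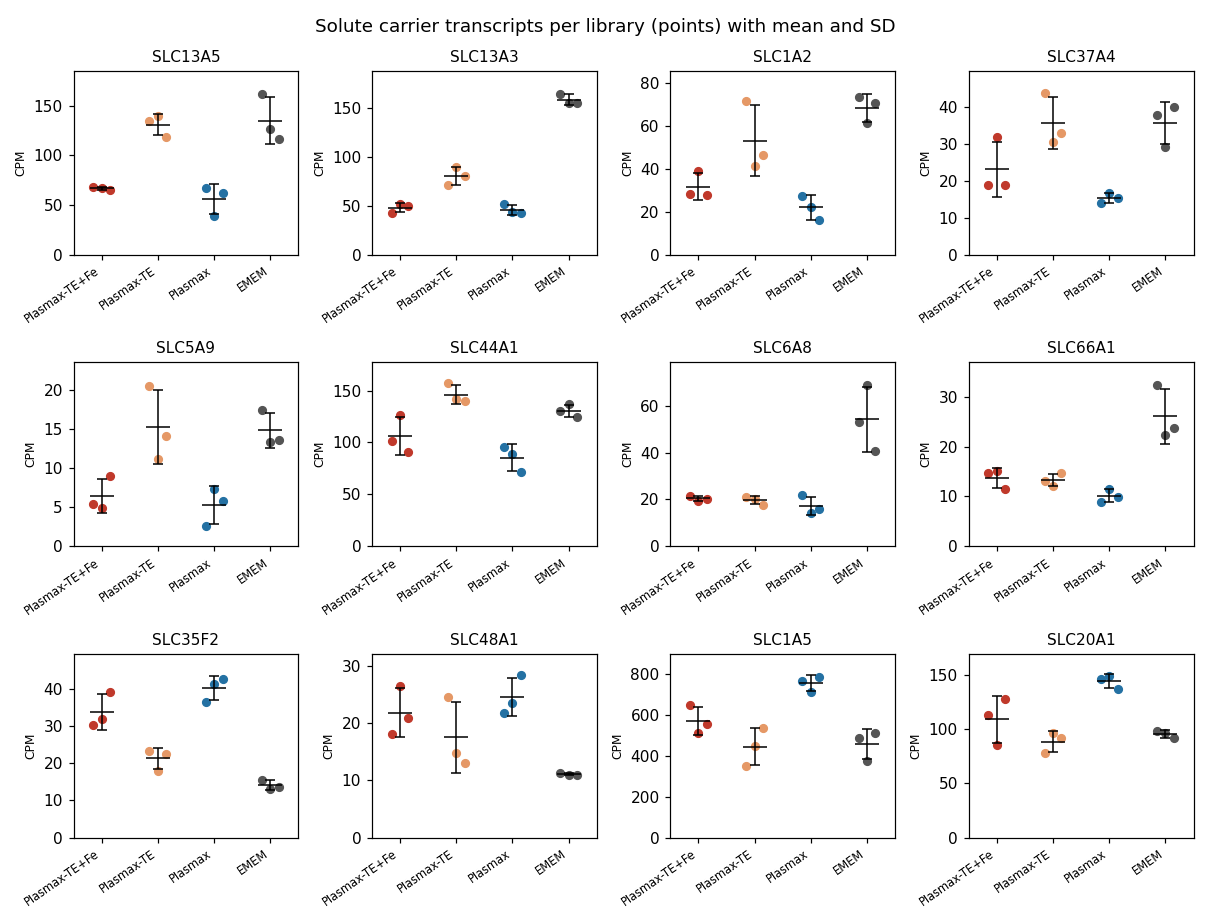
Level in CPM (linear axis from 0) of 12 solute carriers in each library, with points for libraries, a long bar for the mean and error bars for the SD of 3 libraries. SLC13A5 and SLC13A3 were lower in Plasmax-TE+Fe and in Plasmax than in Plasmax-TE and EMEM, and SLC35F2 was higher in Plasmax than in Plasmax-TE and EMEM.

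SLC5A9, a sodium-driven carrier of mannose and related sugars, was scarcer. Its level was 5.46, 4.87 and 8.94 CPM in Plasmax-TE+Fe, 20.5, 11.2 and 14.1 CPM in Plasmax-TE, 2.56, 7.31 and 5.84 CPM in Plasmax, and 17.4, 13.4 and 13.6 CPM in EMEM. The change in log2 units was -1.49 ± 0.36 in Plasmax against EMEM (edgeR adjusted p = 0.0052) and 1.48 ± 0.36 in Plasmax-TE against Plasmax (edgeR adjusted p = 0.011). The second call was lost without Plasmax-TE replicate 1 (edgeR adjusted p = 0.053). With added iron the log2 fold change from Plasmax-TE was -1.23, which was not called.

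SLC5A3, the sodium-driven carrier of myo-inositol, moved the other way. It had 14.3, 15.1 and 16.4 CPM in Plasmax-TE+Fe, 16.5, 12.6 and 10.5 CPM in Plasmax-TE, 21.1, 43.4 and 27.4 CPM in Plasmax, and 21.8, 51.6 and 24.1 CPM in EMEM. Replicate 2 was the highest library of both Plasmax and EMEM. The log2 fold change was -1.22 ± 0.32 in Plasmax-TE against Plasmax (edgeR adjusted p = 0.019), a call lost without Plasmax-TE replicate 2 or 3 or Plasmax replicate 2 (edgeR adjusted p 0.060 to 0.12). SLC5A3 shares exon bases on the same strand with MRPS6, so its reads may be assigned to either gene. SLC5A11, another inositol carrier, was too low to be tested. It had 2.52, 4.33 and 1.99 CPM in Plasmax-TE+Fe, 2.85, 3.14 and 2.62 CPM in Plasmax-TE, 3.84, 5.22 and 4.04 CPM in Plasmax, and 0, 0.839 and 0.91 CPM in EMEM.

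Among carriers of amino acids and their derivatives, 4 of 13 fell and 2 rose in Plasmax against EMEM (46.2%, beside 21.4% of all genes). In Plasmax-TE against Plasmax 1 rose and 1 fell (15.4%, beside 11.2% of all genes). SLC1A2, a glutamate carrier, had 28.2, 38.9 and 27.8 CPM in Plasmax-TE+Fe, 71.9, 41.3 and 46.6 CPM in Plasmax-TE, 27.5, 22.5 and 16.2 CPM in Plasmax, and 73.5, 61.2 and 71.0 CPM in EMEM. Plasmax lay below all libraries of Plasmax-TE and EMEM, and Plasmax-TE replicate 1 was the highest of its medium. Its log2 fold change was -1.71 ± 0.22 in Plasmax against EMEM (edgeR adjusted p = 1.5e-05) and 1.29 ± 0.22 in Plasmax-TE against Plasmax (edgeR adjusted p = 0.0011).

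SLC6A8, the creatine carrier, was higher in EMEM than in any Plasmax medium. Its level was 21.4, 19.5 and 20.4 CPM in Plasmax-TE+Fe, 21.1, 20.2 and 17.8 CPM in Plasmax-TE, 21.8, 14.1 and 15.7 CPM in Plasmax, and 53.0, 68.8 and 40.9 CPM in EMEM. On the log2 scale the change was -1.72 ± 0.22 in Plasmax (edgeR adjusted p = 1.5e-05), -1.51 in Plasmax-TE and -1.45 in Plasmax-TE+Fe, each against EMEM and each called. The human genome holds near-identical pseudogene copies of SLC6A8, so its counts are uncertain. SLC66A1, a lysosomal carrier of cationic amino acids, had 14.7, 15.1 and 11.4 CPM in Plasmax-TE+Fe, 13.1, 12.1 and 14.7 CPM in Plasmax-TE, 8.96, 11.5 and 9.88 CPM in Plasmax, and 32.4, 22.2 and 23.7 CPM in EMEM. It fell in all 3 Plasmax media against EMEM, with a log2 fold change of -1.39 ± 0.24 in Plasmax (edgeR adjusted p = 3.9e-04).

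SLC1A5, the main glutamine carrier of many cancer lines, had the highest level of all the carriers. It had 648, 514 and 556 CPM in Plasmax-TE+Fe, 352, 451 and 536 CPM in Plasmax-TE, 769, 712 and 789 CPM in Plasmax, and 488, 375 and 511 CPM in EMEM. All 3 Plasmax libraries lay above the other 9. The change in log2 units was 0.67 ± 0.18 in Plasmax against EMEM (edgeR adjusted p = 0.010), not called without EMEM replicate 2 (edgeR adjusted p = 0.069). It was -0.75 ± 0.18 in Plasmax-TE against Plasmax (edgeR adjusted p = 0.011).

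SLC36A4, an amino acid carrier of the proton-coupled family, rose in Plasmax against EMEM by 0.97 ± 0.33 on the log2 scale (edgeR adjusted p = 0.044), although the libraries overlapped at 16.8 ± 5.86 CPM in Plasmax and 7.77 ± 3.56 CPM in EMEM (SD, n = 3 each). That call was lost when any of 5 single libraries was left out (Plasmax-TE replicate 2, Plasmax replicate 1 or 2, EMEM replicate 1 or 3), with edgeR adjusted p of 0.052 to 0.17. It was also lost in DESeq2 (adjusted p = 0.054) and with the replicate block (edgeR adjusted p = 0.057). SLC43A1, a carrier of large neutral amino acids that lies outside the rule for named genes and is given so that every call is accounted for, fell in Plasmax with a log2 fold change of -0.84 ± 0.19 (edgeR adjusted p = 0.0029).

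**Figure D3:**
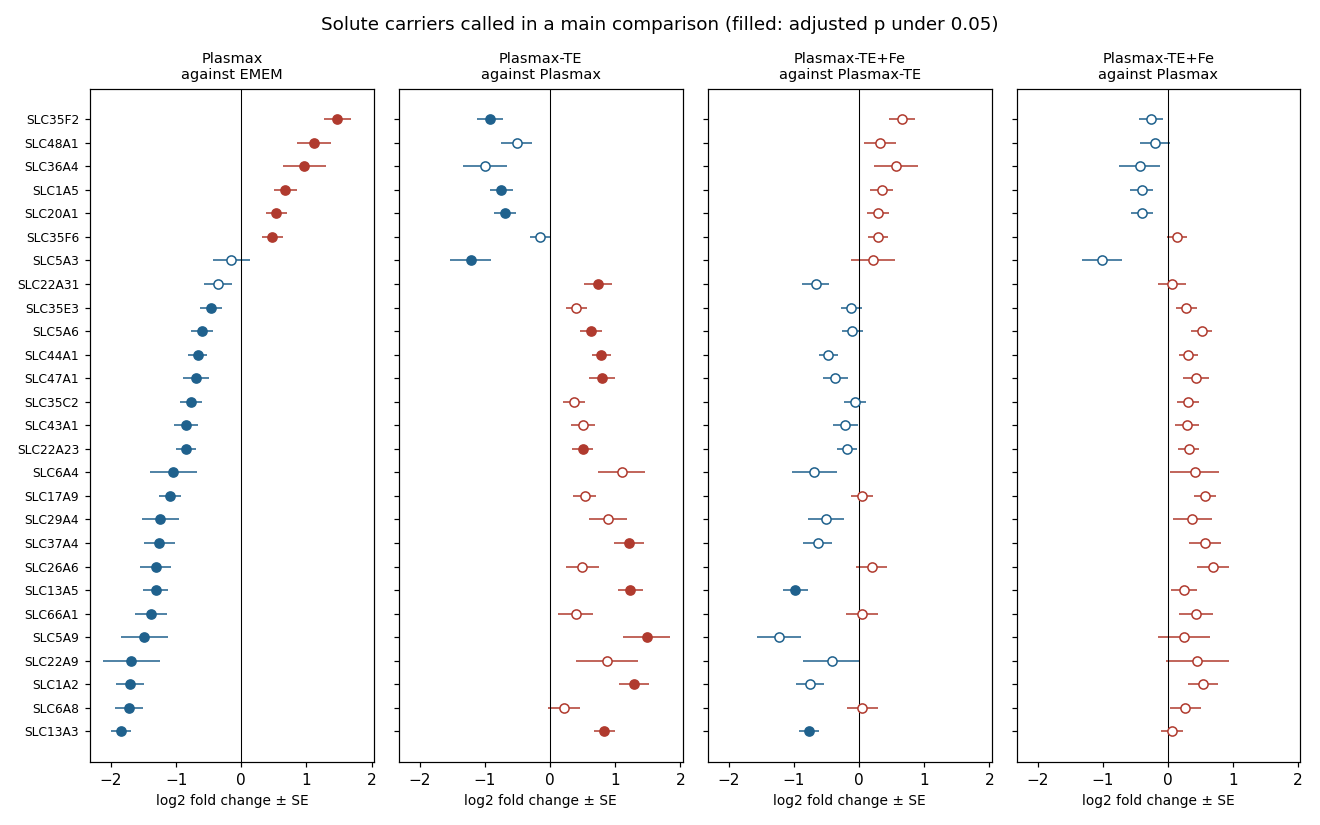
Log2 fold change with its SE for the solute carriers called in at least 1 main comparison, except SLC23A1 (near 0 counts in Plasmax), with filled points for adjusted p under 0.05 and open points for genes not called. Genes are ordered by their value in Plasmax against EMEM, and no point is filled for Plasmax-TE+Fe against Plasmax.

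Of 8 tested vitamin and choline carriers, SLC5A6 and SLC44A1 fell in Plasmax against EMEM and rose in Plasmax-TE against Plasmax, and 5 were called in neither comparison. The remaining one, SLC23A1, was called in both but passed the filter on a single medium. With it, 37.5% of the class was called in each comparison, beside 21.4% and 11.2% of all genes. SLC5A6 carries biotin and pantothenate. It had 193, 274 and 194 CPM in Plasmax-TE+Fe, 269, 245 and 193 CPM in Plasmax-TE, 136, 143 and 176 CPM in Plasmax, and 231, 216 and 225 CPM in EMEM. All Plasmax libraries lay below those of the other 3 media. The log2 fold change was -0.60 ± 0.16 in Plasmax against EMEM (edgeR adjusted p = 0.012), lost without Plasmax replicate 1 or 2 (edgeR adjusted p 0.059 to 0.078). In Plasmax-TE against Plasmax it was 0.63 ± 0.16 (edgeR adjusted p = 0.018), lost without Plasmax-TE replicate 1 or 2 or Plasmax replicate 1 or 2 (edgeR adjusted p 0.057 to 0.10).

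SLC44A1, a choline carrier, averaged 146 ± 9.39 CPM in Plasmax-TE, 85.4 ± 12.7 CPM in Plasmax and 131 ± 6.05 CPM in EMEM (SD, n = 3 each). Its log2 fold change was -0.67 ± 0.15 in Plasmax against EMEM (edgeR adjusted p = 0.0029) and 0.79 ± 0.15 in Plasmax-TE against Plasmax (edgeR adjusted p = 0.0021). SLC23A1, a vitamin C carrier, was close to the detection limit. It had 2.94, 4.33 and 2.48 CPM in Plasmax-TE+Fe, 7.42, 5.83 and 5.23 CPM in Plasmax-TE, 0.64, 0 and 0.898 CPM in Plasmax, and 3.74, 2.52 and 4.55 CPM in EMEM. It passed the filter only through the Plasmax-TE libraries and so had to be higher there. The filter did not force a difference between Plasmax and EMEM, but the counts were few, and no fold is given for either call.

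The class of organic ions held 8 tested genes. In Plasmax against EMEM 3 of the 8 fell, beside 21.4% of all genes called. In Plasmax-TE against Plasmax 2 of the 8 rose, beside 11.2% of all genes called. SLC47A1, which extrudes organic cations in exchange for protons, had 61.4, 73.0 and 61.6 CPM in Plasmax-TE+Fe, 64.5, 93.3 and 91.1 CPM in Plasmax-TE, 40.3, 42.8 and 59.7 CPM in Plasmax, and 69.2, 75.1 and 81.4 CPM in EMEM. Plasmax libraries were the lowest. Its log2 fold change was -0.70 ± 0.20 in Plasmax against EMEM (edgeR adjusted p = 0.016) and 0.80 ± 0.20 in Plasmax-TE against Plasmax (edgeR adjusted p = 0.013). The first was lost without Plasmax replicate 1 or 2 or EMEM replicate 3, and the second without Plasmax-TE replicate 2 or 3 or Plasmax replicate 1 or 2, with edgeR adjusted p up to 0.10.

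SLC22A9, an organic anion carrier of the liver, had 5.46, 13.5 and 6.46 CPM in Plasmax-TE+Fe, 22.8, 6.28 and 5.23 CPM in Plasmax-TE, 7.68, 6.27 and 4.49 CPM in Plasmax, and 21.8, 15.9 and 19.1 CPM in EMEM. The 2 libraries that stood apart were the highest of their media. In Plasmax against EMEM the log2 fold change was -1.69 ± 0.44 (edgeR adjusted p = 0.0093). In Plasmax-TE against EMEM it was -0.81 with all libraries, which was not called, and -1.70 without those 2.

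SLC6A4, the serotonin carrier, fell in Plasmax against EMEM. It had 7.15, 17.3 and 6.46 CPM in Plasmax-TE+Fe, 23.4, 12.1 and 13.6 CPM in Plasmax-TE, 7.68, 5.75 and 8.98 CPM in Plasmax, and 18.1, 13.0 and 14.6 CPM in EMEM. On the log2 scale the change was -1.04 ± 0.36 (edgeR adjusted p = 0.045), lost when Plasmax-TE replicate 3, Plasmax replicate 1 or 2 or any 1 EMEM library was left out (edgeR adjusted p 0.050 to 0.18). It was also lost in DESeq2 (adjusted p = 0.052), with the replicate block (edgeR adjusted p = 0.060), with library size alone and with the filter on mean CPM. SLC22A31 was counted with the organic ions although its substrate is not well known. It rose in Plasmax-TE against Plasmax by 0.73 ± 0.21 on the log2 scale (edgeR adjusted p = 0.031). That call was lost without Plasmax-TE replicate 2 or 3 or Plasmax replicate 1 or 2 (edgeR adjusted p 0.066 to 0.12).

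Of 17 carriers of nucleotide sugars and other Golgi and endoplasmic reticulum substrates, 3 fell in Plasmax against EMEM and 1 rose in Plasmax-TE against Plasmax. Both shares (17.6% and 5.88%) were below those of all genes (21.4% and 11.2%). SLC37A4 moves glucose 6-phosphate into the endoplasmic reticulum, where it is cleaved in the last step of glucose production. It had 18.9, 31.9 and 18.9 CPM in Plasmax-TE+Fe, 43.9, 30.5 and 33.0 CPM in Plasmax-TE, 14.1, 16.7 and 15.3 CPM in Plasmax, and 38, 29.4 and 40.04 CPM in EMEM. Plasmax lay below every library of the other 3 media. The change in log2 units was -1.26 ± 0.23 in Plasmax against EMEM (edgeR adjusted p = 6.7e-04) and 1.21 ± 0.24 in Plasmax-TE against Plasmax (edgeR adjusted p = 0.0025).

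SLC17A9, a vesicular nucleotide carrier, was the most abundant of that class. It had 207, 200 and 213 CPM in Plasmax-TE+Fe, 148, 232 and 215 CPM in Plasmax-TE, 139, 126 and 151 CPM in Plasmax, and 283, 289 and 289 CPM in EMEM. EMEM lay above all other libraries. The log2 fold change in Plasmax against EMEM was -1.10 ± 0.17 (edgeR adjusted p = 1.2e-04). SLC35C2, which like SLC43A1 lies outside the naming rule, fell by 0.78 ± 0.17 on the log2 scale (edgeR adjusted p = 0.0025). In the nucleoside class 1 of 3 genes fell in Plasmax against EMEM (33.3%, beside 21.4% of all genes called). It was SLC29A4, a carrier of monoamines and adenosine, with 15.6, 28.1 and 17.4 CPM in Plasmax-TE+Fe, 46.2, 20.6 and 20.4 CPM in Plasmax-TE, 14.7, 17.8 and 13.9 CPM in Plasmax, and 35.5, 32.3 and 38.2 CPM in EMEM. In Plasmax against EMEM the log2 fold change was -1.24 ± 0.28 (edgeR adjusted p = 0.0034). SLC29A1, the leading nucleoside carrier, had 47.1, 73.5 and 53.6 CPM in Plasmax-TE+Fe, 58.2, 54.3 and 58.6 CPM in Plasmax-TE, 42.9, 61.1 and 52.1 CPM in Plasmax, and 47.4, 69.2 and 50.05 CPM in EMEM, and it was not called.

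Carriers of bicarbonate, sulfate and phosphate gave 1 higher and 1 lower gene of 8 in Plasmax against EMEM. These 2 calls of 8 were a share close to the 21.4% of all genes called. SLC20A1, a sodium-driven phosphate carrier, had 113, 85.4 and 128 CPM in Plasmax-TE+Fe, 77.6, 96.0 and 91.6 CPM in Plasmax-TE, 147, 149 and 137 CPM in Plasmax, and 98.4, 96.5 and 91.9 CPM in EMEM. Plasmax was above all other libraries. The log2 fold change was 0.54 ± 0.17 in Plasmax against EMEM (edgeR adjusted p = 0.025), and the call was lost without Plasmax replicate 1 or 2 or any 1 EMEM library (edgeR adjusted p 0.058 to 0.086). In Plasmax-TE against Plasmax it was -0.69 ± 0.17 (edgeR adjusted p = 0.012), lost without Plasmax-TE replicate 1 (edgeR adjusted p = 0.055). SLC26A6, an exchanger of chloride, bicarbonate and oxalate, had 42.5, 65.4 and 74.0 CPM in Plasmax-TE+Fe, 54.2, 56.5 and 46.6 CPM in Plasmax-TE, 31.4, 34.5 and 44.9 CPM in Plasmax, and 125, 82.2 and 64.2 CPM in EMEM. The log2 fold change in Plasmax against EMEM was -1.31 ± 0.24 (edgeR adjusted p = 5.5e-04).

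Among 5 tested carriers of copper, magnesium and heme, only SLC48A1 was called in these comparisons. In Plasmax against EMEM 1 call of 5 was a share close to the 21.4% of all genes called. SLC48A1 moves heme out of endosomes and lysosomes. It had 18.1, 26.5 and 20.9 CPM in Plasmax-TE+Fe, 24.5, 14.8 and 13.1 CPM in Plasmax-TE, 21.8, 23.5 and 28.3 CPM in Plasmax, and 11.2, 10.9 and 10.9 CPM in EMEM. EMEM was below all other libraries. Its log2 fold change was 1.11 ± 0.25 in Plasmax (edgeR adjusted p = 0.0036) and 0.92 ± 0.26 in Plasmax-TE+Fe (edgeR adjusted p = 0.026), each against EMEM. SLC31A1, the main copper importer, was not called, with 135, 85.98 and 144 CPM in Plasmax-TE+Fe, 90.7, 110 and 133 CPM in Plasmax-TE, 130, 142 and 131 CPM in Plasmax, and 128, 115 and 136 CPM in EMEM.

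Over all genes tested, 21.4% were called in Plasmax against EMEM and 34.2% had an unadjusted p under 0.05. None of the 13 tested carriers of sodium, potassium, calcium, protons and chloride was called by edgeR in any of the 6 comparisons. Their log2 fold changes in Plasmax against EMEM were -0.69 to 0.70, with 2 genes at an unadjusted p under 0.05. SLC9B2, a sodium and proton exchanger and the highest of them, had 37.4, 36.2 and 37.3 CPM in Plasmax-TE+Fe, 33.1, 32.8 and 31.9 CPM in Plasmax-TE, 36.5, 42.3 and 34.1 CPM in Plasmax, and 45.5, 49.1 and 38.2 CPM in EMEM. The summed level of that class overlapped in all 4 media. None of the 4 fatty acid carriers was called either, and none had an unadjusted p under 0.05. SLC27A4, the highest of them, had 11.3, 19.5 and 17.4 CPM in Plasmax-TE+Fe, 16.5, 12.1 and 10.5 CPM in Plasmax-TE, 16.6, 14.1 and 15.3 CPM in Plasmax, and 11.8, 11.3 and 14.6 CPM in EMEM.

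**Figure D4:**
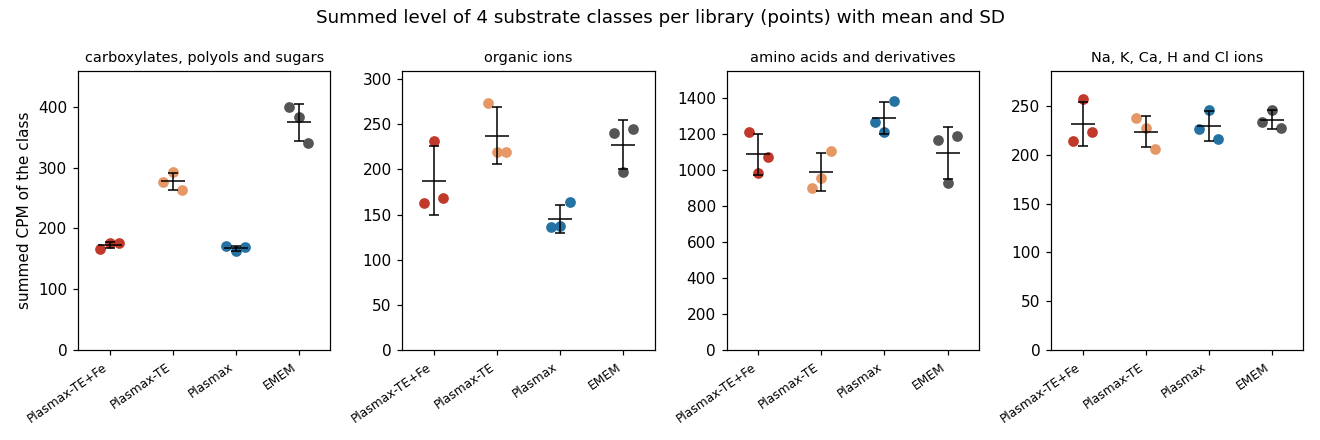
Summed CPM of 4 substrate classes in each library (linear axis from 0), with points for libraries, a long bar for the mean and error bars for the SD of 3 libraries. The carboxylate class lay between 340 and 401 CPM in EMEM, above all libraries of the other media, and the class of sodium, potassium, calcium, proton and chloride carriers overlapped in all 4 media.

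Of 11 carriers with other or unknown substrates, 2 rose and 2 fell in Plasmax against EMEM (36.4%, beside 21.4% of all genes). SLC35F2 had 30.3, 31.9 and 39.2 CPM in Plasmax-TE+Fe, 23.4, 17.9 and 22.5 CPM in Plasmax-TE, 36.5, 41.3 and 42.6 CPM in Plasmax, and 15.6, 13.0 and 13.6 CPM in EMEM. EMEM and Plasmax-TE lay below both other media. On the log2 scale the change was 1.47 ± 0.21 in Plasmax against EMEM (edgeR adjusted p = 4.1e-05), -0.92 ± 0.20 in Plasmax-TE against Plasmax (edgeR adjusted p = 0.0052), and 0.67 in Plasmax-TE+Fe against Plasmax-TE, which was not called. SLC35F6 rose in Plasmax against EMEM by 0.47 ± 0.16 (edgeR adjusted p = 0.039), lost without Plasmax replicate 2 or 3 or any 1 EMEM library (edgeR adjusted p 0.055 to 0.13) and with the replicate block (edgeR adjusted p = 0.055).

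SLC22A23 averaged 75.9 ± 8.74 CPM in Plasmax-TE, 53.6 ± 3.81 CPM in Plasmax and 93.1 ± 10.3 CPM in EMEM (SD, n = 3 each). It fell in Plasmax against EMEM by 0.85 ± 0.15 on the log2 scale (edgeR adjusted p = 5.7e-04), and rose in Plasmax-TE against Plasmax by 0.50 ± 0.16 (edgeR adjusted p = 0.044), a call lost without any 1 library other than Plasmax-TE+Fe replicate 2 (edgeR adjusted p 0.051 to 0.14). Without both libraries that stood apart the rise was 0.45 and was not called (edgeR adjusted p = 0.076), and the call was lost in DESeq2 (adjusted p = 0.060), with the replicate block (edgeR adjusted p = 0.055) and with library size alone. SLC35E3, outside the naming rule, fell in Plasmax against EMEM by 0.47 ± 0.16 (edgeR adjusted p = 0.047), a call lost without any 1 of 9 libraries (all but Plasmax-TE+Fe replicate 2, Plasmax-TE replicate 1 and Plasmax replicate 1, edgeR adjusted p 0.051 to 0.17). It was lost too in DESeq2 (adjusted p = 0.066), with the replicate block (edgeR adjusted p = 0.055) and with library size alone. SLC66A2, the highest of the class, was not called, with 106, 189 and 113 CPM in Plasmax-TE+Fe, 201, 144 and 138 CPM in Plasmax-TE, 123, 98.2 and 125 CPM in Plasmax, and 166, 149 and 167 CPM in EMEM.

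The 2 libraries that stood apart differed from the other 4 of their media by at least 1 on the log2 scale in 8 carriers. SLC17A2 (1.65), SLC22A9 (1.44), SLC46A1 (1.28), SLC26A2 (1.08), SLC15A4 (1.08), SLC35A1 (1.07) and SLC6A4 (1.03) were higher in those 2, and SLC6A14 was lower (-1.22). These genes were selected for that difference, so it is a description. The same count was not made over all genes, where the median difference was 0.09, against 0.16 in the carriers.

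To show the starts of genes that moved together, the promoters of 4 called carriers with a RefSeq entry are given, as 300 bases (250 before the start and 50 after) of build GRCh38.p14, each on the minus strand. They are SLC13A5 (chr17:6713320-6713619) and SLC37A4 (chr11:119030828-119031127), lower in Plasmax than in EMEM, and SLC1A5 (chr19:46788545-46788844) and SLC35F2 (chr11:107858738-107859037), higher. Capitals mark the CCAAT box, the GC box (letters GGGCGG) and the TATA box (letters TATAAA) on either strand.
SLC13A5: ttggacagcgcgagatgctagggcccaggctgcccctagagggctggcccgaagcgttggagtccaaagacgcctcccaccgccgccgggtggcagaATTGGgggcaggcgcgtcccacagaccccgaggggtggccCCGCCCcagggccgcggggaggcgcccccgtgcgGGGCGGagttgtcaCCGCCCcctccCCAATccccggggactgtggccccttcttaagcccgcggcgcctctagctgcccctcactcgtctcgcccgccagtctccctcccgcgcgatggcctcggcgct
SLC37A4: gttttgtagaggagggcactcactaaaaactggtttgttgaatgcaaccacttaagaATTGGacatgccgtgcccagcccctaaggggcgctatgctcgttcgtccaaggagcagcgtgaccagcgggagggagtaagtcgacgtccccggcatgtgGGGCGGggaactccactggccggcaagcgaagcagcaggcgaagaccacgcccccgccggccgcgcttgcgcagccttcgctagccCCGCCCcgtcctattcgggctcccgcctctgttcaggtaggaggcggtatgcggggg
SLC1A5: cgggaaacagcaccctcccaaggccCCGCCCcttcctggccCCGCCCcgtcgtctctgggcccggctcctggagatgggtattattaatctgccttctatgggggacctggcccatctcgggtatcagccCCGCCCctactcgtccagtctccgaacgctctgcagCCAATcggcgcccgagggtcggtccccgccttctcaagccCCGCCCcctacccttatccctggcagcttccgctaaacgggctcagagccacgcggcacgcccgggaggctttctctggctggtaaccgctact
SLC35F2: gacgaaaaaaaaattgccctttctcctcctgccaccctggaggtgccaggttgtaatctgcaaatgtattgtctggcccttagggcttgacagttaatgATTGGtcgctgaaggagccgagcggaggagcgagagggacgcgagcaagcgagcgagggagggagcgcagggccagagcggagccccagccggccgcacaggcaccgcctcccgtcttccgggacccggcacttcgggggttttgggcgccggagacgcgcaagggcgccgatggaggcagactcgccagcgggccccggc
The GC box GGGCGG occurred 3 times in the SLC13A5 promoter, 2 times in that of SLC37A4 and 4 times in that of SLC1A5, and was not found in that of SLC35F2.

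Of the 99 carriers, 77 had such a promoter, and 12 motifs were searched in them on both strands. GGGCGG was in 77.92% of the carriers' promoters, against 44.95% of 35116 promoters in all. Those 35116 are every promoter listed, not only those of genes in the count table. By call in Plasmax against EMEM, GGGCGG was in 84.62% of 13 lower, 80% of 5 higher and 75.44% of 57 carriers not called. TATAAA was in 2.597% against 11.53%, and CCAAT in 31.17% against 34.61%. The aryl hydrocarbon receptor core GCGTG was in 46.75% against 36.54%, and the E-box CACGTG, part of whose letters it shares, in 9.091% against 7.256%. The metal response element cores TGCACNC and TGCGCNC were in 9.091% against 12.07% and in 24.68% against 19.97%. The antioxidant response element core TGACNNNGC was in 12.99% against 13.35%, the C/EBP-ATF core TGATGNAA in 1.299% against 3.617%, and the cAMP response element TGACGTCA in 2.597% against 1.848%. The HNF1 core and the HNF4 repeat CAAAGTCCA were in none of the carriers' promoters, against 0.04841% and 0.3844%. The median GC content of the carriers' promoters was 67.33%, against 58.67% of all promoters.

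Exons of 26 carriers overlapped a gene on the opposite strand and those of 9 a gene on the same strand in the GENCODE annotation. Whether counting used strand is not stated in these sources, so reads of such pairs may be mixed. Among called genes this touches SLC13A5 (ALOX15P1), SLC37A4 (TRAPPC4), SLC48A1 (HDAC7 and RAPGEF3), SLC29A4 (TNRC18), SLC5A6 (ATRAID), SLC26A6 (MIR6824, same strand), SLC5A3 (MRPS6, same strand), and SLC1A2, SLC1A5, SLC35F2, SLC5A9 and SLC47A1 with unnamed transcripts.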

How the data were processed

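HepG2 RNA was profiled in 12 QuantSeq libraries, which read 3′ ends, 3 per medium. Per the submitters' processing notes, the tools were STAR 2.7.5b, featureCounts 1.6.3, cutadapt 1.16, FastQC 0.72 and limma 3.40.6, with build hg19 (GRCh37). The sources used here do not give the annotation or strand setting. The authors deposited raw counts per gene, without normalization. After 54 repeated rows were dropped, 10940 genes remained.

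The analysis used edgeR 4.0.16 under R 4.3.3, with filterByExpr (minimum count 10, minimum total 15; 10459 genes), TMM factors (0.964 to 1.06) and 1 quasi-likelihood fit of the medium over 12 libraries (8 residual degrees of freedom). Benjamini-Hochberg adjustment ran over all genes tested, and genes with adjusted p under 0.05 were called. SE is the absolute log2 fold change over the square root of F. CPM are counts per 1000000 counts of the library. With 3 libraries a medium, exact permutation p-values are at least 0.1. The scripts were tested on simulated counts.

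Named genes are carriers called in a main comparison with at least 5 CPM in 1 medium (up to 12 highest and 12 lowest) and the highest gene of each class. Members and lists were chosen with earlier results of these data known. Replicate numbers paired libraries by the correlation of deviations only in Plasmax-TE against EMEM (0.164, 0.110 and 0.171). Runs of library numbers, which differ from replicate numbers in Plasmax-TE+Fe, also passed 0.1 in every pair for Plasmax-TE+Fe against Plasmax-TE (0.532, 0.218 and 0.376) and against EMEM (0.127, 0.117 and 0.184). DESeq2 1.42.0 was an alternative.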

Additional observations from a re-analysis of the deposited data

How the results depend on the processing

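All alternatives were planned, but the 2 libraries left out together were those that stood apart on a principal component of these same data. Of 43 calls of single carriers in the main comparisons, 25 were kept under every alternative in which they were tested. The other 18 were lost under at least 1, and 0 changed sign. SLC23A1 was tested under only 19 of the 20 alternatives, since the filter on mean CPM removed it. Its call in Plasmax-TE against Plasmax is among the 25. Counts of called carriers under RLE factors, library size alone, DESeq2, no filter or a mean of at least 5 CPM stayed within 1.5 times of the values in the report.

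With runs of consecutive library numbers as a block, calls numbered 23 in Plasmax-TE against Plasmax, 2 in Plasmax-TE+Fe against Plasmax (SLC17A9 and SLC5A3), 8 in Plasmax-TE against EMEM and 19 in Plasmax-TE+Fe against EMEM. Calls over all genes rose alongside, to 1859, 372, 829 and 1569, against 1176, 126, 503 and 1009 without the block. With the replicate number as a block there was 1 call in Plasmax-TE+Fe against Plasmax-TE (SLC13A5), and in Plasmax-TE against EMEM, where the pairing check passed, 4 calls (SLC26A6 was lost, edgeR adjusted p = 0.072). Without both libraries that stood apart there was 1 call in Plasmax-TE+Fe against Plasmax (SLC17A9), 10 in Plasmax-TE against EMEM and 22 in Plasmax-TE+Fe against EMEM, with 174, 656 and 1503 genes called in all. The cause was not tested.

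Leaving out each library in turn gave 16 to 30 calls among the 4 media (fewest without EMEM replicate 3), with 1275 to 2465 calls over all genes. In Plasmax against EMEM it gave 18 to 30, with 1489 to 2642 over all genes. It gave 10 to 22 in Plasmax-TE against Plasmax, with 477 to 1577 over all genes. The range was 0 to 4 in Plasmax-TE+Fe against Plasmax-TE (most without Plasmax-TE+Fe replicate 2), with 0 to 229 over all genes. In Plasmax-TE+Fe against Plasmax it was 0 to 1 (1 without Plasmax-TE replicate 1), with 31 to 170 over all genes. Leave-outs gave 2 to 6 calls in Plasmax-TE against EMEM (2 without Plasmax-TE replicate 2, 3 without EMEM replicate 1), with 259 to 678 over all genes. Plasmax-TE+Fe against EMEM had 6 to 16 (6 without Plasmax-TE+Fe replicate 3, 7 without EMEM replicate 1), with 606 to 1224 over all genes. Carriers of a few CPM rest on few counts per library, which limits what change could be detected in them.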

Other observations

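The 84 tested solute carriers of the families left out gave 5 higher and 17 lower genes in Plasmax against EMEM (26.2%, beside 21.4% of all genes), and 9 higher and 7 lower in Plasmax-TE against Plasmax (19.0%, beside 11.2%). Their share of lower genes in Plasmax against EMEM was 20.2%, close to the 20.8% of the carriers described above. Of 24 ABC transporters, 3 were higher and 5 lower in Plasmax against EMEM (33.3%), and 3 higher in Plasmax-TE against Plasmax (12.5%). SLCO2B1, an organic anion carrier, had a log2 fold change of -1.50 in Plasmax against EMEM.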
